A study of Mus musculus with 4 samples.

Results

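Dividing natural killer (NK) cells were examined in single-cell RNA libraries of leukocytes from B16-F10 tumours, a transplantable mouse melanoma grown in mice. A barcode counted as a dividing NK cell if it had at least 300 genes, at most 10% mitochondrial unique molecular identifiers (UMIs, the counted RNA molecules), at least 3 UMIs of Ncr1, Klrb1c and Klre1 together with at least 1 of Ncr1, none of Cd3d, Cd3e, Cd8a, Cd8b1 or Csf1r, and at least 1 UMI of Mki67 or Top2a. The rule found 426 cells among 1675 NK cells, which are the cells that met all clauses but the last, and among 35411 barcodes kept of 36694. By library the dividing cells numbered 48 of 400 NK cells in the control library, 140 of 328 in the CD40 library, 80 of 537 in the PD1 library and 158 of 410 in the combination library. The cells were thus chosen by their UMIs of the rule's own genes, so the number of cells and the levels of these genes are descriptions.

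All mice carried B16-F10 tumours and were treated on days 8 and 11, and tumours were collected on day 14. Control mice received dilution buffer in the tumour and IgG intravenously. CD40 mice received an antibody to CD40, an activating receptor on B cells and other antigen-presenting cells, in the tumour and IgG intravenously. PD1 mice received an antibody to PD1, an inhibitory receptor of lymphocytes, intravenously and dilution buffer in the tumour, and combination mice received both antibodies. Tumours of 6 mice were pooled in each group before live CD45+ cells were sorted, and each pool gave 1 5′ droplet library. With 1 library per group there is no replicate, so no difference was tested. Intervals are exact 95% counting intervals, which cover counting error only, and a difference between libraries cannot be told apart from a difference between pools or preparations.

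NK cells are innate lymphocytes that kill stressed or transformed cells through perforin and granzymes and secrete interferon gamma and chemokines. Mouse NK cells mature from CD27-expressing cells that proliferate readily to CD11b-expressing, KLRG1-positive cells with strong cytotoxicity, and interleukin 15 and interleukin 2 family cytokines support their division. Dividing cells first switch on DNA replication genes and histones for S phase and then mitotic genes for G2 and M phase. Mki67 encodes Ki-67, a protein that coats mitotic chromosomes, and Top2a encodes the topoisomerase that untangles replicated DNA. Ncr1 (NKp46), Klrb1c (NK1.1) and Klre1 are NK receptors.

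The promoters of the genes that chose the cells are shown with that of Cenpe, a mitotic kinesin that ranked first among the G2 and mitosis genes by its ratios for the CD40 antibody. Each sequence runs 5′ to 3′ on the gene's strand, from 250 bases before to 50 after the start site, in RefSeq's annotation of GRCm38.p6: Mki67 at chr7:135716330-135716629 on the minus strand, Top2a at chr11:99024140-99024439 on the minus strand and Cenpe at chr3:135212313-135212612 on the plus strand. Capitals mark the letters TTTGAA of the cell cycle genes homology region (CHR) and CCAAT boxes, on either strand. Both elements are known from promoters of mitotic genes.
Mki67: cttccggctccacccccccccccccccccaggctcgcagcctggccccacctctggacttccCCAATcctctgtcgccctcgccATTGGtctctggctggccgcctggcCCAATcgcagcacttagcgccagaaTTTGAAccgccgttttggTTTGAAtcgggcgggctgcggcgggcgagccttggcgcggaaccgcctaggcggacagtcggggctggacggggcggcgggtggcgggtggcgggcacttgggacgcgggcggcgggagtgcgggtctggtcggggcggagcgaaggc
Top2a: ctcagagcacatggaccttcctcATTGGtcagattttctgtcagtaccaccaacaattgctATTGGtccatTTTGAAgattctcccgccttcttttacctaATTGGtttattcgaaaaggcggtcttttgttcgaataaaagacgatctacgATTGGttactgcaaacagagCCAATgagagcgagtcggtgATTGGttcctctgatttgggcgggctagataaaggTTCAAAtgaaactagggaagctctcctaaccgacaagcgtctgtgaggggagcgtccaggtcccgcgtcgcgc
Cenpe: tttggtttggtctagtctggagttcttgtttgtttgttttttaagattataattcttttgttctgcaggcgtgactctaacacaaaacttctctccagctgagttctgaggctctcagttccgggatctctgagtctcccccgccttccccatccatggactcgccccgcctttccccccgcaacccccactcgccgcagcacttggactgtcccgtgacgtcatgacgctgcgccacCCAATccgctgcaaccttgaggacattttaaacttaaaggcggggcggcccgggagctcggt
The Mki67 window held CHR letters at -116 and -98 from the start site, the Top2a window at -179 and -23, and the Cenpe window held none. Over the G2 and mitosis list, of which 25 of 30 genes had a window, CHR letters were found in 80% of genes and CCAAT in 88%. Over all genes with a window these shares were 20.2% and 41.1%. Over the 24 matched of 30 genes in the S phase list they were 12.5% and 62.5%. The letters of an E2F site (TTTGGCGC, TTTGCCGC, TTTCGCGC or TTTCCCGC, either strand) were instead found in 45.8% of S phase genes, against 4% of G2 and mitosis genes and 2.6% of all genes. No searched motif contains another. A match describes letters in a window and says nothing of binding.

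The libraries held 117735875 to 164755549 UMIs. Dividing NK cells contributed 458808 UMIs in the control library, 2306659 in the CD40 library, 831615 in the PD1 library and 2538796 in the combination library, so the control values carry the largest counting error. Their median depth was 6708.5, 15385.5, 7888 and 15401.5 UMIs in that order, against 5530, 9554.5, 6074 and 10608 in the other NK cells. Pairs of libraries shared 94 to 144 barcodes, 1.16 to 1.73% of the smaller library, and none of them was shared between dividing NK cells. Predicted doublets among the dividing NK cells numbered 0, 1, 0 and 3 and were kept. Levels below are UMIs per 1000000 UMIs (CPM), summed over the dividing NK cells of a library, with values in the order control, CD40, PD1 and combination unless libraries are named.

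NK genes that the rule did not use were found in all 4 libraries. Klrd1, the partner chain of NKG2 receptors, was at 857, 748, 908 and 860.2 CPM, and Klrk1 (NKG2D) at 695, 601, 676 and 631 CPM. Eomes, a transcription factor of NK cells, was lower in dividing cells, at 222, 98.8, 218 and 111 CPM against 297, 193, 253 and 169 CPM with no division UMI. In cells with at least 3 division UMIs Eomes was at 114, 57.9, 117 and 75.8 CPM. T cell markers summed to 359.6, 335, 326 and 348 CPM over 12 genes, with the most UMIs from Trbc1, against 575 to 1377 CPM in all other kept barcodes. In this paragraph all other barcodes are the kept barcodes that were not NK cells, with or without a division UMI. Cd4 and Foxp3 were at 0 in 3 of the 4 libraries. Cd3g, which the rule did not read, was less even than these sums. Without cells with a Cd3g UMI, 46 of 48, 120 of 140, 76 of 80 and 130 of 158 dividing NK cells were left. Cells with Cd3g thus made up a larger share in the 2 libraries with the CD40 antibody. Without them the log2 ratio of the share with a division UMI was 1.76 for CD40 against control and 1.34 for combination against PD1. The 5 gamma-delta T cell markers summed to 48.0, 101, 62.5 and 84.3 CPM. They summed to 9.38 to 16.5 CPM in all other kept barcodes and 70.3 to 79.0 CPM in other NK cells. Of these markers 3, 1, 2 and 2 were at 0, and only Sox13 was at 0 in every library. The gene with the most UMIs was Trdc in the control and PD1 libraries and Tcrg-C4 in the CD40 and combination libraries. The part of these markers in the results was not tested. Phagocyte markers summed to 1458, 252, 979 and 289 CPM (all other barcodes 11497 to 20232 CPM) and dendritic cell markers to 717, 419, 2382 and 399.8 CPM (8209 to 14513 CPM). Neutrophil markers summed to 0, 3.90, 0 and 482 CPM. Of 10 dendritic cell genes 5, 5, 5 and 6 were at 0, among them Clec9a, Cd209a and Siglech in every library, and Cd74 had the most UMIs. Over 1% of UMIs came from phagocyte, dendritic cell, neutrophil and B cell markers in 2, 0, 2 and 3 of the dividing NK cells. Of the genes named for an antibody, Ccr7, Cst3 and Tmem176b moved without these 7 cells by more than the counting interval, and both values are given below. B cell markers summed to 74.1, 0.867, 2.40 and 3.94 CPM, against 93.5, 35.8, 58.0 and 28.7 CPM in all other barcodes and 13.0, 2.78, 18.2 and 1.80 CPM in other NK cells. The control level was thus the nearest to that of its whole sort. Markers of melanoma, erythroid cells and other innate lymphoid cells each summed to at most 13.1 CPM.

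The share of NK cells with a division UMI was higher in both libraries that received the CD40 antibody. It was 12% (8.98 to 15.6) in the control library, 42.7% (37.3 to 48.2) in the CD40 library, 14.9% (12.0 to 18.2) in the PD1 library and 38.5% (33.8 to 43.4) in the combination library. The log2 ratio of shares was 1.83 for CD40 against control and 1.37 for combination against PD1, which share no library. It was 0.31 for PD1 against control and -0.15 for combination against CD40, and in both of these pairs the intervals of the shares overlapped. As a share of all kept barcodes, dividing NK cells were 0.612%, 1.77%, 0.805% and 1.63%. The sort for CD45 sets what these shares are taken of.

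NK cells held more UMIs per cell in the 2 libraries with the CD40 antibody, and a cell with more UMIs has more chances of a division UMI. CD8 T cells of the same libraries, taken by their own markers, held a median of 11111, 12801, 14765 and 13356.5 UMIs, highest in the PD1 library. With each NK cell thinned to 5000 UMIs the shares were 11.1, 34.1, 9.95 and 27.7%, after 156, 23, 135 and 17 shallower cells were left out. Thinned to 2000 UMIs they were 4.81, 21.0, 5.08 and 18.4%. Neutrophils, which do not divide once mature, gave a background of 2.44% (2 of 82 cells), 1.71% (5 of 292), 0 of 83 cells (which allows a share of up to 3.61% by a limit of 3 counts and 4.35% by the exact interval) and 1.96% (16 of 815) at the same 2000 UMIs. Their median depth was 2127, 3789, 2332 and 4526.5 UMIs, against 5734.5, 10944.5, 6285 and 11478 in NK cells. At 2000 UMIs the control and PD1 shares had intervals that overlapped those of the neutrophils, and the CD40 and combination shares did not.

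**Figure D1:**
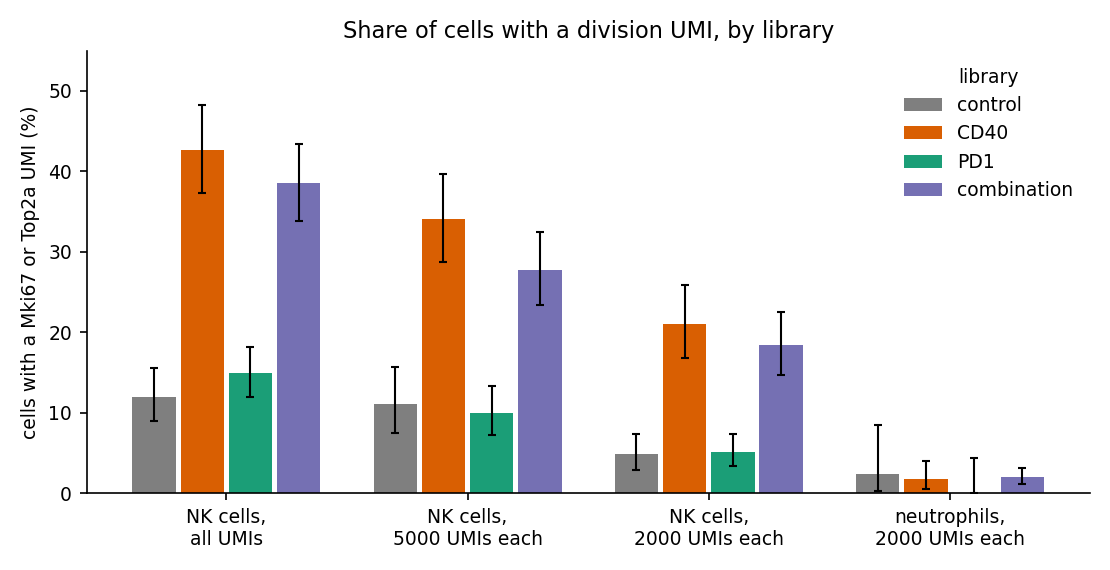
Share of cells with a Mki67 or Top2a UMI (y axis, percent) for NK cells at full depth, thinned to 5000 and to 2000 UMIs, and for neutrophils thinned to 2000 UMIs; bars are the 4 libraries and lines are exact 95% binomial intervals. At every depth the CD40 and combination bars stand above those of control and PD1, and at 2000 UMIs the latter (4.81 and 5.08%) have intervals that overlap those of the neutrophils.

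The dividing NK cells differed in how many division UMIs they held. Exactly 1 UMI of Mki67 and Top2a was found in 37 of 48 control cells, 56 of 140 CD40 cells, 53 of 80 PD1 cells and 58 of 158 combination cells. At least 3 were found in 7, 67, 12 and 76 cells, which is 1.75% (0.706 to 3.57), 20.4% (16.2 to 25.2), 2.23% (1.16 to 3.87) and 18.5% (14.9 to 22.6) of the NK cells. The log2 ratio of these shares was 3.55 for CD40 against control and 3.05 for combination against PD1, above the 1.83 and 1.37 of the whole set. The highest counts in a cell were 50, 105, 56 and 85. Both genes were detected in 4, 61, 14 and 79 cells.

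Other genes of the cell cycle separated these classes. The G2 and mitosis list, 30 genes without Mki67 and Top2a, summed to 99.3, 122, 113 and 144 CPM in NK cells just outside the rule, with no division UMI. In the cells just inside it, with 1 UMI, it summed to 81.6, 148, 120.2 and 118 CPM, which is the level of NK cells outside the rule. In cells with at least 3 UMIs it summed to 5395, 4795, 2511 and 4845 CPM, and at least 5 of its UMIs were found in 5 of 7, 59 of 67, 8 of 12 and 72 of 76 of these cells. The S phase list summed to 612, 565, 648 and 662 CPM with no division UMI, to 1156, 1103, 854 and 986 CPM with 1, and to 2781, 3897, 3999 and 4102 CPM with at least 3. Genes that the rule did not read thus marked the cells with at least 3 division UMIs as cycling. The cells with 1 UMI, summed together, had S phase genes above, and mitotic genes near, the level of the other NK cells. Per cell, the median S phase count was 5, 6, 5 and 6 UMIs with 1 division UMI and 3, 4, 4 and 5 with none. Median depths were 6239, 12417.5, 7302 and 11164 UMIs with 1, and the highest S phase counts there were 109, 97, 55 and 104. The higher S phase sum thus does not describe the typical cell with 1 UMI. Cells with 1 UMI made up 77.1, 40, 66.3 and 36.7% of the dividing NK cells, so the control and PD1 levels below hold fewer clearly cycling cells.

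**Figure D2:**
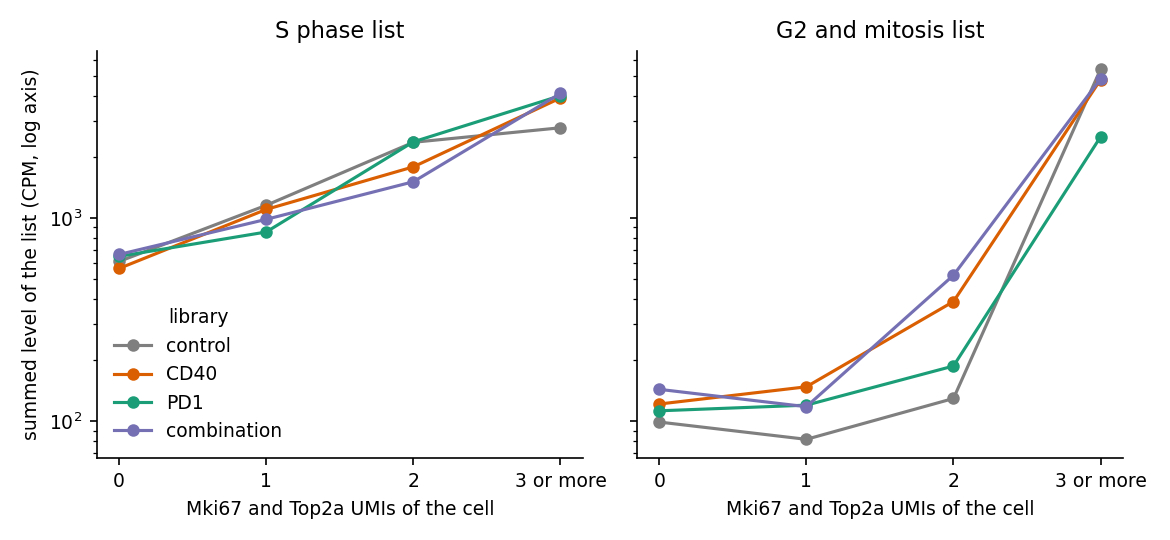
Summed level of the S phase list and of the G2 and mitosis list (y axes, CPM, log scale) in NK cells with 0, 1, 2 and 3 or more Mki67 and Top2a UMIs (x axis), with 1 line per library. The G2 and mitosis level is flat from 0 to 1 UMI (81.6 to 148 CPM) and reaches 2511 to 5395 CPM at 3 or more. The summed S phase level already differs at 1 UMI, where the median cell held 5, 6, 5 and 6 S phase UMIs against 3, 4, 4 and 5 at 0.

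The clauses against T cells and phagocytes removed cells with NK markers. Of 550, 523, 793 and 680 cells that met the NK clause, 114, 152, 173 and 207 had a Cd3d or Cd3e UMI, a further 9, 14, 16 and 35 a Cd8a or Cd8b1 UMI, and a further 27, 29, 67 and 28 a Csf1r UMI. A division UMI was found in 20, 48.7, 27.0 and 48.5% of the removed cells, the same order of libraries as among the NK cells kept. CD8 T cells, taken by their own markers, had a division UMI in 45.1, 53.9, 53.3 and 54.0% of 794, 1851, 1140 and 3096 cells.

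Within each library, the dividing NK cells were set beside the NK cells without a division UMI. The rule chose them, so these values are a description. Among 10334 genes measured in all 4 libraries, 2.16% were 2-fold or more higher in dividing cells in all 4 and 0.00968% were 2-fold or more lower in all 4. Of the S phase list 27 of 30 genes, of the G2 and mitosis list 24 of 25, and of the replication-dependent histones 7 of 13 were 2-fold or more higher in all 4 libraries. The median log2 ratio over other NK cells was 2.03, 3.12, 2.25 and 2.63 for the S phase list, 4.28, 4.68, 3.6 and 4.87 for G2 and mitosis and 1.44, 2.68, 1.55 and 2.60 for histones. No list outside the cell cycle had a gene 2-fold or more higher in all 4 libraries. Outside those lists the named genes with the largest ratios included Pclaf, a clamp-associated replication factor, with log2 ratios of 5.14, 5.29, 5.54 and 5.74, and Stmn1, a microtubule regulator, with 4.10, 4.12, 3.68 and 3.98. Cks1b, a cyclin-dependent kinase subunit, had 3.92, 3.59, 3.84 and 3.79, and Tuba1b, an alpha tubulin, had 1.81, 3.6, 1.91 and 3.02.

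Genes lower in dividing than in other NK cells differed by less. Btg1, an antiproliferative gene, had log2 ratios of -0.49, -0.87, -0.70 and -0.97, and Bcl2, a survival gene, had -0.53, -0.95, -0.47 and -0.68. Itgam, which encodes the CD11b chain of mature NK cells, had -0.88, -1.30, -0.47 and -0.86. All these ratios were below 0 in the 4 libraries. Over all genes, 15.6% had ratios below 0 in all 4 libraries and 16.8% above 0 in all 4. Of the Ly49 receptors, inhibitory and activating receptors for MHC class I, 5 of 9 were below 0 in all 4 libraries, with a list median of -0.26, -0.68, -0.46 and -0.64. Close Klra paralogs share sequence, so reads may be assigned to either copy. Of the cytokine receptors and STAT5 targets 12 of 20 were below 0 in all 4 libraries (median -0.18, -0.36, -0.27 and -0.27). Il2ra, the high-affinity chain of the interleukin 2 receptor, had ratios of 0.69, 1.14, 2.03 and 0.82 on 15, 130, 28 and 81 UMIs. Of these UMIs, cells with at least 3 division UMIs held 0, 32, 12 and 50 UMIs, and at 24.7 CPM the CD40 library was there no higher than its NK cells without a division UMI (25.6 CPM). Myc, which drives cell growth, had 0.53, 0.59, 0.30 and 0.20. Heat shock genes were above 0 in all 4 libraries for 5 of 8 measured genes, and oxidative phosphorylation genes for 6 of 14.

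Cell cycle genes of dividing NK cells were higher in the CD40 than in the control library and in the combination than in the PD1 library. Counts below are of list genes at a ratio of at least 2-fold. Over all genes with at least 10 UMIs in the 4 libraries together, 4.97% were 2-fold or more higher and 14.6% 2-fold or more lower in CD40 against control, and 4.75% and 8.55% in combination against PD1. Of the G2 and mitosis list, 18 of 30 genes were 2-fold or more higher in CD40 against control and 28 of 30 in combination against PD1, with median log2 ratios of 1.07 and 2.03. All 30 genes were above 0 in both, against 43.3 and 43.4% of all genes. Of the histones 10 of 16 and 11 of 16 were higher (medians 1.43 and 1.41), and of the S phase list 8 of 30 and 6 of 30 (medians 0.70 and 0.48). The median over all genes was -0.11 and -0.08. Mki67 and Top2a are cell cycle genes themselves, so these lists are not independent of the rule. In cells with at least 3 division UMIs the G2 and mitosis median was -0.06 for CD40 against control (7 control cells) and 0.87 for combination against PD1, the histone medians were 0.47 and 0.32, and the S phase medians 0.51 and -0.0046.

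Among single cell cycle genes, Cenpe was at 17.4 (7.53 to 34.4), 88.4 (76.7 to 101), 18 (10.1 to 29.7) and 96.1 (84.4 to 109) CPM, detected in 4, 50, 8 and 60 cells. Its log2 ratio was 2.34 (1.34 to 3.57) for CD40 against control and 2.41 (1.66 to 3.27) for combination against PD1, and 1 cell held 62.5% of the control UMIs. These ratios were 1.09 and 1.75 in cells with at least 3 division UMIs, and without the cell with the most Cenpe UMIs in each library the first was 3.6. Kif22, a chromosome-binding kinesin, was at 15.3, 65.0, 19.2 and 77.6 CPM (log2 2.09 and 2.01). The linker histones Hist1h1a, at 15.3, 70.2, 14.4 and 58.7 CPM, and Hist1h1b, at 122, 447, 91.4 and 357 CPM, were likewise higher in both libraries with the CD40 antibody, with log2 ratios of 2.20 and 2.02 and of 1.87 and 1.97. Among cells with at least 3 division UMIs the ratios were 0.89 and 1.03 for Kif22, 1.23 and 1.17 for Hist1h1a and 0.75 and 0.85 for Hist1h1b. Histone genes are close paralogs, so single copies are uncertain. Ube2c, which loads ubiquitin for the exit from mitosis, was at 192, 286, 37.3 and 322 CPM, and Ccnb1, the mitotic cyclin B1, at 24.0, 59.8, 4.81 and 60.7 CPM. Both were lowest in the PD1 library, where the G2 and mitosis list had 12 of 29 genes 2-fold or more lower and 2 higher than in control (median -0.77), against 6.75% lower and 4.47% higher over all genes. With cells thinned before the rule this median was 0.32. Both sides rest on few cells. The control library had 645 UMIs of the list, with 211 in 1 cell and at least 5 in only 5 of 48 cells. The PD1 library had 602, with 143 in 1 cell and at least 5 in 12 of 80 cells.

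Genes of late NK maturation were higher in dividing NK cells of both libraries with the CD40 antibody. Klrg1 (ENSMUSG00000030114, GRCm38 chromosome 6, 122270596 to 122282882), an inhibitory receptor of mature NK cells, was at 54.5 (35.3 to 80.4), 571 (541 to 603), 111 (89.2 to 136) and 556 (528 to 586) CPM and was detected in 13, 123, 34 and 140 cells. The intervals of the CD40 and combination libraries overlapped each other and lay above those of control and PD1. The log2 ratio was 3.39 (2.82 to 4.02) for CD40 against control and 2.33 (2.02 to 2.65) for combination against PD1, and 3.88 and 1.62 in cells with at least 3 division UMIs. Of the 11 genes of the list, 6 were 2-fold or more higher for CD40 against control and 4 for combination against PD1, none was 2-fold lower, and the medians were 1.08 and 0.50.

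Cx3cr1, a chemokine receptor of mature NK cells, was at 8.72, 110.1, 20.4 and 74.4 CPM (log2 3.66 and 1.86), with 4 UMIs in the control library. Its ratios were 2.06 and 0.45 in cells with at least 3 division UMIs. S1pr5, which guides exit from marrow and lymph nodes, was at 43.6, 134, 39.7 and 86.7 CPM (log2 1.62 and 1.13), and Tbx21 (T-bet), a transcription factor of NK maturation, at 239.8, 447, 182 and 320.2 CPM (log2 0.90 and 0.82). Zeb2, a repressor that acts with T-bet, had log2 ratios of 0.99 and 0.43. Ly6c2 was at 71.9, 901, 375 and 1021 CPM. It was lowest in the control library, where 1 cell held 75.8% of its UMIs. Itgam and Cma1, a chymase, differed in CD40 against control (log2 1.08 and 2.00) more than in combination against PD1 (0.05 and 0.34), a difference that was not tested.

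The same direction was seen in NK cells without a division UMI. Their log2 ratios for CD40 against control and combination against PD1 were 2.71 and 2.41 for Klrg1, 3.82 and 1.03 for Cx3cr1 and 1.24 and 0.48 for S1pr5, with list medians of 1.24 and 0.27. Within the CD40, PD1 and combination libraries Klrg1 differed little between dividing and other NK cells, with log2 ratios of 0.05, 0.11 and 0.03. In the control library Klrg1 was lower in dividing cells, at -0.63 (-1.30 to -0.03) on 25 UMIs. Dividing and other NK cells are different cells of 1 library, so these values share their pool and preparation.

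Gzmk (ENSMUSG00000042385, GRCm38 chromosome 13, 113171608 to 113225908), which encodes granzyme K, was at 21.8 (10.5 to 40.1), 98.4 (86.0 to 112), 20.4 (11.9 to 32.7) and 173 (157 to 189.9) CPM, with log2 ratios of 2.17 (1.27 to 3.25) and 3.08 (2.38 to 3.87). Gpx8, a glutathione peroxidase family member of the endoplasmic reticulum, had 1, 225, 6 and 213 UMIs in 1, 58, 5 and 71 cells. Its log2 ratio was 3.54 (2.39 to 5.00) for combination against PD1, and for CD40 against control it was 3.90 (2.99 to 10.79) with the control count of 1 set to 3. Trerf1, a transcriptional regulator, was at 28.3, 143, 13.2 and 73.3 CPM (log2 2.33 and 2.47), and Snap47, of the SNARE membrane fusion family, at 13.1, 57.7, 13.2 and 55.1 CPM (log2 2.14 and 2.06). In cells with at least 3 division UMIs, Trerf1 had log2 ratios of 1.29 and 1.15. NK cells without a division UMI had the same direction for all 4 genes. Their log2 ratios were 3.88 and 3.04 for Gzmk and 4.71 and 2.80 for Gpx8. For Trerf1 they were 1.18 and 1.33, and for Snap47 1.63 and 1.04. With Cenpe, Kif22, both linker histones, Klrg1 and Cx3cr1 these are the 10 genes with the largest ratios that recurred in both comparisons, of 59 that met the limits on level.

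**Figure D3:**
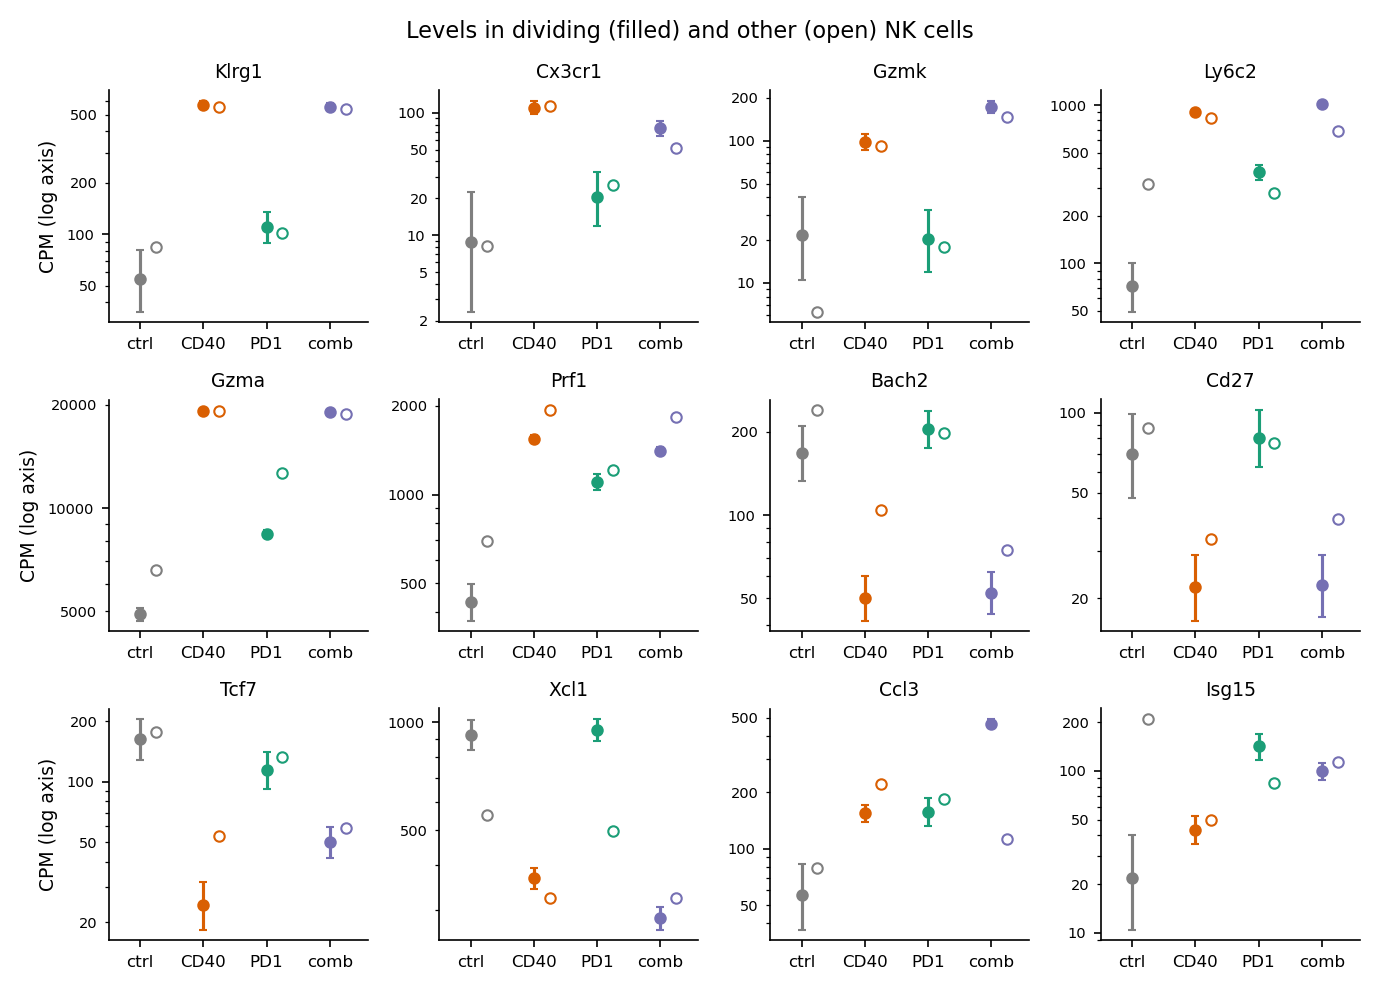
Level of 12 genes (y axes, CPM, log scale) in dividing NK cells (filled, with exact 95% Poisson intervals) and in NK cells without a division UMI (open) of the control (ctrl), CD40, PD1 and combination (comb) libraries. Klrg1 is at 571 and 556 CPM in the 2 libraries with the CD40 antibody against 54.5 and 111 CPM without it, Bach2 has the opposite order, and Isg15 of the control library is at 21.8 CPM in dividing and 209 CPM in other NK cells.

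Genes of early and memory-like NK cells were lower in both libraries with the CD40 antibody. Bach2 (ENSMUSG00000040270, GRCm38 chromosome 4, 32238804 to 32586108), a transcriptional repressor that restrains effector differentiation in lymphocytes, was at 168 (132 to 209.8), 50.3 (41.6 to 60.3), 204 (175 to 238) and 52.4 (43.9 to 62.1) CPM. Its levels in the 2 libraries with the CD40 antibody did not overlap those of the other 2, and the log2 ratio was -1.74 (-2.17 to -1.30) for CD40 against control and -1.96 (-2.30 to -1.63) for combination against PD1. Among cells with at least 3 division UMIs these ratios were -0.38 and -1.44. Of the 12 genes of the list 7 and 6 were 2-fold or more lower, with medians of -1.23 and -1.03. In the other NK cells the medians were -0.47 and -0.41.

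Tcf7 (TCF-1), a transcription factor of early NK cells and memory T cells, was at 163, 24.3, 114 and 50 CPM (log2 -2.75 and -1.19). Cd27, the costimulatory receptor that marks immature mouse NK cells, was at 69.7, 22.1, 80.6 and 22.5 CPM, with log2 ratios of -1.66 (-2.32 to -0.97) and -1.84 (-2.38 to -1.31). Kit, the stem cell factor receptor, was at 87.2, 26.4, 92.6 and 38.6 CPM (log2 -1.72 and -1.26), and Xcl1, a chemokine that attracts cross-presenting dendritic cells, at 919.8, 368, 951 and 285 CPM (log2 -1.32 and -1.74). In the control library 1 cell held 59.2% of the 422 Xcl1 UMIs, so the ratio for CD40 against control rests in large part on that cell. In NK cells without a division UMI Xcl1 was at 551, 324, 498 and 324 CPM. Lef1, a partner of TCF-1, had log2 ratios of -1.22 and -0.88. Thy1, also on the list, went the other way, at 453, 586, 412 and 705 CPM, and Cd7 was at 471, 471, 354 and 467 CPM. Eomes, a T-box factor of NK cells, was at 222, 98.8, 218 and 111 CPM (log2 -1.17 and -0.97). Aff3, a nuclear factor of the super elongation complex family, was at 153, 14.3, 84.2 and 24.0 CPM (log2 -3.41 and -1.81), and Parp8, Kcnip3 and Tmem176b had log2 ratios of -2.22 and -1.54, -1.59 and -2.21 and -1.59 and -1.97. For Tmem176b the ratio of combination against PD1 was -1.29 without the cells with over 1% of UMIs from markers of other cell types, and in cells with at least 3 division UMIs its ratios were -4.24 and -3.91.

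Cytotoxic effector genes were split. Gzma, which encodes granzyme A, was at 4895 (4695 to 5102), 19151 (18972 to 19330.1), 8405 (8209 to 8605) and 19101 (18931 to 19272) CPM (log2 1.97 and 1.18). Prf1 (perforin) was at 432, 1542, 1103 and 1407 CPM and Gzmb at 1136, 2327, 2102 and 3031 CPM. Prf1 and Gzmb were lowest in the control library, and their log2 ratios for CD40 against control (1.84 and 1.04) were above those for combination against PD1 (0.35 and 0.53). Of 15 genes of the list 4 were 2-fold or more higher and 1 lower in CD40 against control, and 2 higher in combination against PD1 (medians 0.43 and 0.30). With at least 3 division UMIs required the medians were 0.37 and -0.12, and Prf1 was at 483, 1073, 1484 and 1103 CPM, highest in the PD1 library. Nkg7, a granule protein, was at 2040.1, 3644, 2734 and 3355 CPM, and Ctsw (cathepsin W) at 745, 722, 895 and 718 CPM. Gzmc, at 1382, 557, 2243 and 2314 CPM, was carried by 8, 32, 19 and 47 cells.

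Some large ratios rested on 1 or a few cells. Ccr7, a homing receptor, had 73, 0, 194 and 6 UMIs and Fscn1, an actin-bundling protein of mature dendritic cells, had 49, 1, 85 and 0. In the control library 1 cell held 86.3% of the Ccr7 UMIs. The cells with over 1% of UMIs from markers of other cell types held 63 of the 73 control and 184 of the 194 PD1 Ccr7 UMIs, and all 49 and 85 Fscn1 UMIs. Cst3, cystatin C, abundant in phagocytes and dendritic cells, was at 1286, 136, 771 and 159.5 CPM, with log2 ratios of -3.24 and -2.27. Without those cells the ratios were -0.08 and -0.01. For Ccr7 the ratio without them was -2.42 for combination against PD1, and for CD40 against control -4.21 with the CD40 count of 0 set to 3. Crtam, an activation receptor, was at 67.6, 17.3, 95 and 23.2 CPM (log2 -1.96 and -2.03), and with each cell given equal weight its ratios were -1.18 and -0.76, and in cells with at least 3 division UMIs -3.37 and -3.21.

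Cytokine receptors and STAT5 targets had medians of -0.44 and -0.41 in the 2 comparisons of the CD40 antibody, with 13 and 18 of 20 genes below 0 against 56.7 and 56.6% of all genes. In each, 3 genes were 2-fold or more lower, for CD40 against control a share near the 14.6% over all genes. Bcl2 was at 344 (293 to 402), 159 (143 to 176), 381 (340.4 to 426) and 127 (114 to 142) CPM (log2 -1.12 and -1.58). Stat4, which carries interleukin 12 signals, was at 314, 148, 333 and 189 CPM (log2 -1.08 and -0.81), and Il2rb, the shared interleukin 2 and 15 receptor chain, at 1186, 965, 1365 and 1012 CPM (log2 -0.30 and -0.43). Genes induced by receptor signalling, such as Nr4a and Egr factors, had medians of -0.36 and -0.88. The lists of activating and inhibitory receptors, oxidative phosphorylation, glycolysis and heat shock had medians between -0.08 and 0.40, of which some changed sign in cells with at least 3 division UMIs (glycolysis for CD40 against control 0.40 to -0.11). Slamf7, an activating receptor of cytotoxic lymphocytes, was at 95.9, 284, 171 and 204 CPM, highest in the CD40 library.

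The PD1 antibody gave few genes with a recurring difference. Only 2 genes had a log2 ratio of at least 1 in the same direction in PD1 against control and combination against CD40 and met the limits on level, against 59 higher and 36 lower for the CD40 antibody under the same rule. Of the 59, 19 were in the cell cycle or histone lists. Cells with at least 3 division UMIs made up 14.6, 47.9, 15 and 48.1% of the dividing NK cells. The comparisons of the CD40 antibody thus differ more in this share than those of the PD1 antibody, and its part in the counts was not tested. Over all genes, 3.78% were 2-fold or more higher and 2.51% lower in combination against CD40. The first was Ccl3 (ENSMUSG00000000982, GRCm38 chromosome 11, 83647844 to 83649355), an inflammatory chemokine, at 56.7 (37.0 to 83.0), 154 (139 to 171), 158 (132 to 187) and 466 (439 to 493) CPM, with log2 ratios of 1.47 and 1.59. In the combination library 1 cell held 728 of 1182 of its UMIs, and without the cell with the most Ccl3 UMIs in each library the ratios were 2.04 and 0.61. In cells with at least 3 division UMIs they were -0.16 and 2.09. Ifng (interferon gamma), at 63.2, 122, 54.1 and 547 CPM, had 1098 of 1388 combination UMIs in 1 cell, and Ccl4, at 229, 383, 424 and 1341 CPM, had 61.0% of them in 1 cell.

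The second was Isg15 (ENSMUSG00000035692, GRCm38 chromosome 4, 156199424 to 156200818), an interferon-induced ubiquitin-like protein, at 21.8 (10.5 to 40.1), 43.4 (35.3 to 52.7), 142 (117 to 169.9) and 99.7 (87.8 to 113) CPM, with log2 ratios of 2.70 for PD1 against control and 1.20 for combination against CD40. Of the type I interferon response, 6 of 15 genes in PD1 against control and 8 of 15 in combination against CD40 were 2-fold or more higher, against 4.47 and 3.78% of all genes. None was 2-fold lower, and 14 and 15 were above 0, against 47.8 and 46.1% of all genes. The medians were 0.36 and 1.20, and the first was -0.18 with cells thinned before the rule. In CD40 against control and combination against PD1 the list went the other way, with medians of -0.60 and -0.77. There 4 of 12 and 5 of 15 genes were 2-fold or more lower, against 14.6 and 8.55% of all genes, and 0 were 2-fold higher. With cells thinned before the rule the median of combination against PD1 was 0.37. Irf7, a regulator of interferon genes, was at 69.7, 23.0, 70.9 and 59.1 CPM, and Usp18, a brake on interferon receptor signalling, at 15.3, 24.7, 62.5 and 36.6 CPM. In NK cells without a division UMI the list had the opposite direction in PD1 against control (median -0.57) and the same one in combination against CD40 (1.02). Isg15 was at 209, 49.5, 84.6 and 114 CPM in these cells. In cells with at least 3 division UMIs the log2 ratio of Isg15 was -0.11 for PD1 against control. Among dividing NK cells 1 cell held 26.3% of the PD1 Isg15 UMIs, and the control library had 10 Isg15 UMIs. Ifit genes are close paralogs, so their single values are uncertain. The list summed to 403, 257, 772 and 494 CPM in dividing NK cells. The control dividing cells held 185 UMIs of the list, so its level there rests on few counts.

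Interferon gamma response genes were above 0 in 13 of 14 genes in PD1 against control and 14 of 14 in combination against CD40, beside the same 47.8 and 46.1% of all genes, with medians of 0.32 and 0.30 and 2 genes in each 2-fold or more higher. Gbp2, a guanylate-binding protein, was at 32.7, 42.5, 74.6 and 72.9 CPM. Genes induced by receptor signalling had 7 of 14 genes 2-fold or more higher in PD1 against control (median 0.91) and 1 of 14 in combination against CD40 (0.40). Over all genes 4.47 and 3.78% were 2-fold or more higher in these comparisons, so the second count is a single gene. Nr4a3, an early gene of receptor signalling, was at 24.0, 17.8, 99.8 and 24.4 CPM, with 37.3% of the PD1 UMIs in 1 cell. Pdcd1, which encodes PD1 itself, had 1, 34, 17 and 46 UMIs in 1, 10, 3 and 12 dividing NK cells. These counts are not scaled to the 458808, 2306659, 831615 and 2538796 UMIs of the dividing NK cells and do not rank the libraries. Cell cycle lists did not recur in 1 direction, with medians for PD1 against control and combination against CD40 of 0.23 and 0.07 for S phase and -0.77 and 0.06 for G2 and mitosis. Late maturation genes had medians of 0.82 and -0.32, and early genes -0.08 and 0.08.

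**Figure D4:**
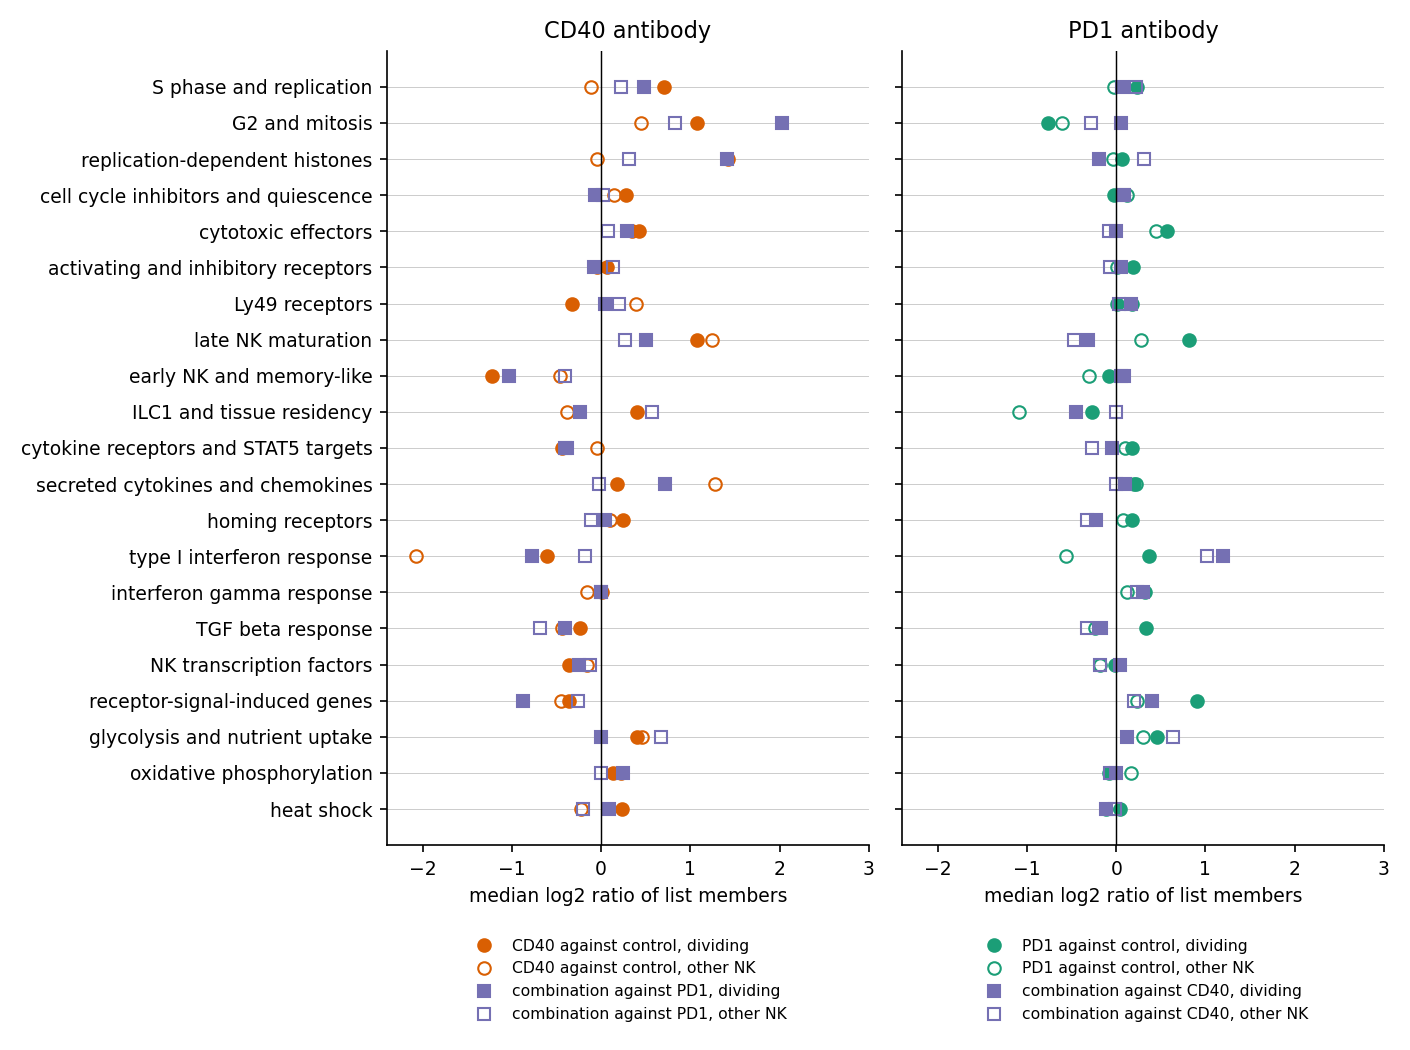
Median log2 ratio (x axes) of the genes of 21 lists (rows) in dividing NK cells (filled) and NK cells without a division UMI (open); the left panel shows the 2 comparisons that differ by the CD40 antibody and the right panel the 2 that differ by the PD1 antibody. On the left, the filled S phase, G2 and mitosis, histone and late maturation symbols lie above 0 and the filled early symbols below 0 in both comparisons (medians -1.23 and -1.03), while on the right the filled type I interferon symbols lie above 0 (0.36 and 1.20).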

How the data were processed

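Live CD45+ cells of B16-F10 tumours from 6 pooled mice per group gave 1 5′ droplet library each. The authors deposited raw UMI counts per gene and barcode, made with Cell Ranger 7.0.0 on GRCm38 per the submitters' processing notes. Not given in the sources used here: the annotation release, the cell calling, and whether reads in introns, which favour long genes, were counted.

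The dividing NK cells and the 21 gene lists were chosen with earlier results of these data known. UMIs were summed per library over the cells, scaled to CPM, and given with exact Poisson intervals. Log2 ratios have exact conditional binomial intervals, shares have Clopper-Pearson intervals, and a count under 3 was set to 3 in a ratio. No test was run, since each group is 1 library and cells are not replicates. Lists are described by the median of the log2 ratios over their genes with at least 10 UMIs over the 4 libraries. Doublets were scored with Scrublet in scanpy 1.11.5 (score above 0.25) and removed in an alternative only. Neutrophils were kept cells with at least 20 UMIs of S100a8 and S100a9 together and none of Csf1r, Ncr1 or Cd3e. CD8 T cells had Cd3 and Cd8 UMIs and none of Ncr1 or Csf1r.

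Genes were named for an antibody by the smaller of their 2 log2 ratios, which had to share a sign and be at least 1 in size, up to 10 per direction. They needed at least 50 CPM and 30 UMIs in the higher library, and at least 0.2 times their level in all other kept barcodes. Mitochondrial, ribosomal protein, haemoglobin, immunoglobulin, T cell receptor and Y-linked genes, Xist and predicted models were left out. List members are named beside these. Coordinates are from GENCODE vM21 and promoter windows from RefSeq. The ratio steps were tested on simulated counts. Other software was Python 3.11.15, numpy 2.4.6, scipy 1.17.1, pandas 2.3.3 and matplotlib 3.10.9.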

Additional observations from a re-analysis of the deposited data

How the results depend on the processing

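The log2 ratio of the share of NK cells with a division UMI had the same direction under all 11 alternatives for CD40 against control, for combination against PD1 and for combination against CD40. With at least 2 division UMIs required it was 3.22 for CD40 against control, 2.28 for combination against PD1 and 0.87 for PD1 against control, and with at least 3 it was 3.55 and 3.05 for the first pair. With cells thinned to 2000 UMIs it was 1.86 for combination against PD1. For PD1 against control it was -0.01 with cells thinned to 5000 UMIs before the rule and -0.15 with division UMIs read after thinning to 5000, but 0.08 after thinning to 2000. The thinned readings of division UMIs, the removal of cells with over 1% of UMIs from markers of other cells and the removal of the top cell of a gene were chosen after seeing the data. Of 512 values of named genes under alternatives, 66 moved by more than the counting interval's wider arm and 4 changed sign. Of 1092 list medians 37 moved by more than the median such width of the list's genes. The sign changed in 105, mostly of medians near 0 and with 1 whose main size was at least 1; 19 of these sign changes came with at least 3 division UMIs. The sign changes of values of size at least 1 were Ccl3 (-0.16) and Isg15 (-0.11) for PD1 against control and the G2 and mitosis median (-0.0554) for CD40 against control with at least 3 division UMIs, and Cst3 for CD40 against control with cells thinned before the rule (0.16) and for combination against PD1 with at least 2 division UMIs (0.0775). Smaller medians that turned with at least 3 division UMIs include Ly49 receptors (-0.33 to 0.36) for CD40 against control, and secreted cytokines (0.71 to -0.67) and cytotoxic effectors (0.30 to -0.12) for combination against PD1. With cells thinned before the rule the type I interferon median turned for PD1 against control (0.36 to -0.18) and combination against PD1 (-0.77 to 0.37). Requiring at least 3 division UMIs leaves 7 control and 12 PD1 cells; beyond that the cause was not tested. Scaling by the median ratio of genes with at least 50 UMIs in place of total UMIs shifted log2 ratios by -0.05 to 0.02. The 48 control cells and their 458808 UMIs limit every comparison with the control library. No paired analysis was possible because each group is 1 library.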

Other observations

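Homing and trafficking genes of dividing NK cells differed with the CD40 antibody in single genes more than as a list. Of 14 genes 5 were 2-fold or more higher and 2 lower in CD40 against control, and 3 and 3 in combination against PD1 (medians 0.25 and 0.05). Over all genes 4.97% were higher and 14.6% lower in the first, and 4.75% and 8.55% in the second. The 2 lower genes in CD40 against control are thus near the share over all genes. Itgb7, an integrin chain, was at 148, 433, 208 and 395 CPM in the order control, CD40, PD1 and combination, and Itgb2, the chain shared by leukocyte integrins, at 379, 879, 455 and 676 CPM. Klf2, a transcription factor of lymphocyte quiescence and trafficking, was at 192, 593, 180.4 and 416 CPM (log2 1.63 and 1.20). Cxcr4, the receptor for CXCL12, was at 26.2, 8.24, 34.9 and 17.3 CPM (log2 -1.67 and -1.01).

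Genes shared with type 1 innate lymphoid cells had medians of 0.41 and -0.24, and of -0.24 and -0.55 in cells with at least 3 division UMIs. Zfp683 (Hobit), a residency factor, was at 15.3, 32.1, 4.81 and 19.3 CPM, with 7, 74, 4 and 49 UMIs, and Itga1 (CD49a) at 41.4, 72.8, 43.3 and 78.4 CPM. Csf2, the cytokine GM-CSF, had 4, 8, 49 and 5 UMIs, and Tnf had 7, 21, 4 and 53. These 2 sets of counts are not scaled, and the dividing NK cells held 458808, 2306659, 831615 and 2538796 UMIs in all. The counts are therefore not levels and do not rank the libraries.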
